A study of Mus musculus with 11 samples.

Results

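The genes that release calcium from the endoplasmic reticulum (ER) and refill it were followed in whole cochleae of mice that lack ATF6, an ER membrane protein that is cut under ER stress to free a transcription factor. The 10 genes were set by a list of symbols: the IP3 receptors *Itpr1*, *Itpr2* and *Itpr3*, the ryanodine receptors *Ryr1*, *Ryr2* and *Ryr3*, the SERCA pumps *Atp2a2* and *Atp2a3*, and the calcium sensors *Stim1* and *Stim2*. Each of the 10 matched a row among the 18667 genes measured. RNA-Seq libraries came from 5 *Atf6*+/+ and 6 *Atf6*-/- cochleae, with 1 cochlea in each library. The mice were 2 months old, littermates of either sex on a C57BL/6J background. Whether each cochlea came from a different mouse is not stated. Both genotypes share that background, a strain with early age-related hearing loss of its own. Values are FPKM, reads scaled by transcript length and by library size, so that levels of different genes can be compared per length. How many reads lie behind a value is not known. FPKM summed over all genes to between 462005 and 537926 in a library.

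Calcium leaves the ER through IP3 receptors, which open when a surface receptor has made IP3, and through ryanodine receptors, which open when calcium itself or a voltage sensor reaches them. SERCA pumps return calcium to the ER lumen, where chaperones need it to fold proteins, and STIM proteins sense an empty lumen and open ORAI channels in the plasma membrane. In the cochlea, IP3-driven calcium waves pass through supporting cells, and ER cisterns lie beside the synapses of hair cells.

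The labels were first checked on the targeted gene. *Atf6* (NCBI gene 226641) had 10.4, 9.99, 10.6, 8.39 and 8.25 FPKM in *Atf6*+/+ replicates 1 to 5, and a lowest, median and highest value of 3.83, 4.22 and 4.59 FPKM in the 6 *Atf6*-/- libraries. Each *Atf6*-/- library was below each *Atf6*+/+ library, with a log2 fold change at -1.13 (SE 0.0837, adjusted p = 5.17e-05 by limma). Hair cell and supporting cell markers were detected in every library, with *Ocm* from 16.9 to 106 FPKM and *Gjb2* from 138 to 289 FPKM.

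A few libraries stood apart in their cell markers. In *Atf6*+/+ replicate 4, 4 of 9 markers of the stria vascularis, the epithelium that makes the endocochlear potential, were at or near 0, with *Bsnd* at 0, *Kcne1* at 0.10, *Tyr* at 0.10 and *Dct* at 0.84 FPKM. The other markers of that list were present but lower than in any other library, from 2.69 FPKM for *Kcnq1* to 159 FPKM for *Atp1b2*. The other 10 libraries had from 3.39 to 22.8 FPKM of *Kcne1* and from 8.35 to 80.2 FPKM of *Dct*. In *Atf6*-/- replicate 3, the skeletal muscle list of 10 genes summed to 52.1 FPKM, against 2.17 to 7.66 FPKM in the other libraries. The summed neutrophil markers were highest in *Atf6*+/+ replicate 3.

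With all 11 libraries, no calcium release or refill gene tested here passed limma or the exact permutation test between the genotypes. Of the 10 genes, 9 reached a mean of 0.1 FPKM over the 11 libraries and were tested with limma, and *Ryr1* did not. Fold changes are on the log2(FPKM + 0.1) scale, which understates those of scarce genes. An adjusted p under 0.05 was reached by 0 of the 9, against 11 of all 16169 genes tested (0.068%). By the looser, unadjusted rule (p up to 0.05, and a log2 fold change beyond 0.05 in either direction), limma again called 0 of 9, against 1592 of 16169 (9.85%). The exact permutation test over the 462 assignments of libraries to groups of 5 and 6 also gave 0 of 9 genes at p of at most 0.05, against 1491 of 16169 (9.22%). The groups overlapped for each of the 10 genes, while 202 of the 16169 genes tested (1.25%) had groups that did not overlap. With so few members, a count of 0 is near what these shares give. The log2 fold changes of the 9 ranged from -0.18 to 0.34, with 6 positive and 3 negative. Their median was 0.01, beside -0.01 for all genes tested, and their median absolute value was 0.06, beside 0.09. In bulk cochlea, fewer cells of a type and less RNA in each cell cannot be told apart.

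**Figure D1:**
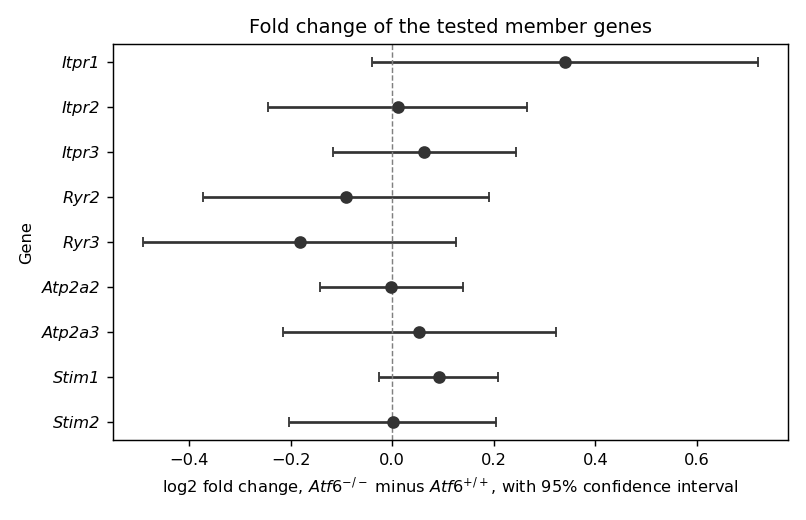
Log2 fold change (*Atf6*-/- minus *Atf6*+/+, log2(FPKM + 0.1) scale, horizontal axis) of the 9 tested genes, with bars for the 95% confidence interval of the limma fit. Each interval crosses 0, and the widest is that of *Itpr1*, from -0.04 to 0.72.

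*Itpr1* (NCBI gene 16438), the IP3 receptor best known from neurons and smooth muscle, had the highest fold change of the 9. It measured 20.5, 19.0, 15.4, 10.5 and 18.2 FPKM in *Atf6*+/+ replicates 1 to 5, and in *Atf6*-/- libraries its lowest, median and highest values were 15.9, 20.5 and 27.6 FPKM. The low library was *Atf6*+/+ replicate 4 and the high ones *Atf6*-/- replicates 5 and 6, with 3 of 5 *Atf6*+/+ values inside the *Atf6*-/- range. The log2 fold change was 0.34 (SE 0.175, adjusted p = 0.528 by limma; exact permutation p = 0.126). It was 0.18 without *Atf6*+/+ replicate 4. Without *Atf6*+/+ replicate 1 it was 0.42, and without *Atf6*-/- replicate 2 it was 0.42, and in each of these fits *Itpr1* passed the unadjusted rule. It was 0.14 when a bone marrow score, the mean log2 value of neutrophil, B cell and erythroid markers, was added to the model.

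Some cell markers were low where *Itpr1* was low, a comparison chosen after the values were seen. The 3 libraries lowest in *Itpr1*, *Atf6*+/+ replicates 4 and 3 and *Atf6*-/- replicate 2, were also the 3 lowest in the summed supporting cell markers and in the summed hair cell markers. The supporting cell list of 8 genes, with *S100a1* as its most abundant gene, summed to 1888, 1630, 964, 948 and 1689 FPKM in *Atf6*+/+ replicates 1 to 5. In *Atf6*-/- replicates 1 to 6 it summed to 1865, 1262, 1848, 1626, 1998 and 1909 FPKM. No gene of that list was at 0 in any library, and the highest sum and the highest *Itpr1* value were both in *Atf6*-/- replicate 5. *S100a1* made up 1381 FPKM of that sum, and in the same library *Otog* at 10.96 FPKM and *Tecta* at 0.38 FPKM had their lowest values of the 11. The hair cell list of 10 genes, led by *Ocm*, summed to 179, 138, 66.9, 67.4 and 115 FPKM in *Atf6*+/+ and to 195, 102, 168, 155, 177 and 173 FPKM in *Atf6*-/- replicates, with no gene at 0. The neutrophil list of 8 genes, led by *S100a9*, ran the other way in *Atf6*+/+ replicates, at 495, 563, 3176, 1262 and 256 FPKM. Its sums in *Atf6*-/- replicates were 92.5, 345, 181, 1199, 147 and 347 FPKM. In *Atf6*-/- replicate 5, *Ocm* made up 106 FPKM of the hair cell sum. There *Ocm*, *Slc26a5* and *Myo6* had their highest values of the 11 libraries, and *Gfi1* its lowest, at 1.75 FPKM. The part of these cell types in the *Itpr1* values was not tested.

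**Figure D2:**
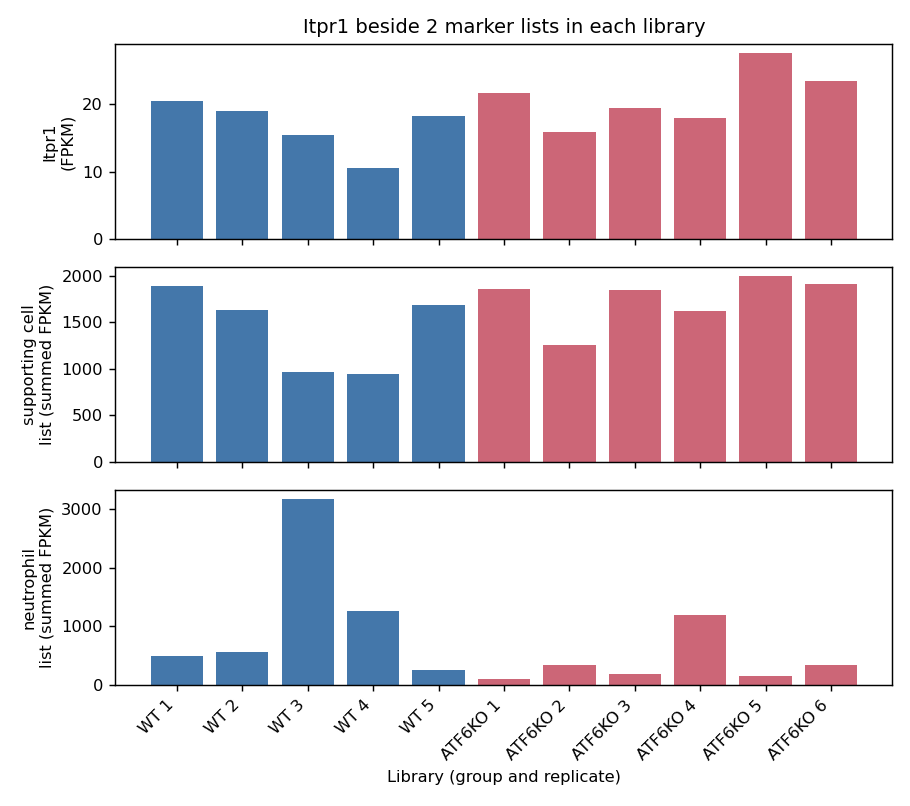
*Itpr1* in FPKM (top) and the summed FPKM of the supporting cell (middle) and neutrophil (bottom) marker lists in each library, with *Atf6*+/+ replicates labelled WT and *Atf6*-/- replicates labelled ATF6KO. *Itpr1* and the supporting cell list were both lowest in WT 4, at 10.5 and 948 FPKM, and highest in ATF6KO 5, at 27.6 and 1998 FPKM.

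*Itpr3* (NCBI gene 16440), the IP3 receptor common in epithelia, was as abundant as *Itpr1*. Its values were 17.97, 20.1, 19.7, 21.5 and 18.1 FPKM in *Atf6*+/+ replicates 1 to 5, and 17.6, 19.7 and 24.6 FPKM as the lowest, median and highest in *Atf6*-/- libraries. The *Atf6*+/+ values all lay inside the *Atf6*-/- range, and the log2 fold change was 0.06 (SE 0.0829, adjusted p = 0.813 by limma). With 1 library left out it ranged from 0.0085 without *Atf6*-/- replicate 5 to 0.10 without *Atf6*-/- replicate 3. *Atf6*+/+ replicate 4, lowest in *Itpr1*, was the highest *Atf6*+/+ library in *Itpr3*. *Itpr2* (NCBI gene 16439), the receptor most sensitive to IP3, was much lower, from 2.46 to 3.31 FPKM in *Atf6*+/+ and from 2.62 to 3.72 FPKM in *Atf6*-/- libraries. The log2 fold change of *Itpr2* was 0.01 (95% confidence interval -0.24 to 0.27), and the groups overlapped. It turned to -0.06 without *Atf6*+/+ replicate 4, the lowest library.

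As shares of summed IP3 receptor FPKM, *Itpr3* took 50.1% ± 7.55 (SD, n = 5) in *Atf6*+/+ and 46.2% ± 2.66 (SD, n = 6) in *Atf6*-/- libraries. *Itpr1* took 42.2% ± 7.26 (SD, n = 5) and 47.0% ± 2.70 (SD, n = 6), and *Itpr2* 7.68% ± 0.445 (SD, n = 5) and 6.89% ± 0.572 (SD, n = 6). The wide *Atf6*+/+ spread came with replicate 4, where *Itpr3* made up 62.4% and *Itpr1* 30.5% of the family. Without that library the *Atf6*+/+ shares of *Itpr1* and *Itpr3* were 45.1% and 47.0%. The family summed to 39.2 ± 3.16 FPKM (SD, n = 5) and 44.5 ± 6.92 FPKM (SD, n = 6).

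The ryanodine receptors were the scarcest of the 10 genes. *Ryr2* (NCBI gene 20191), the heart and brain form, had 2.36, 2.25, 2.81, 2.04 and 1.68 FPKM in *Atf6*+/+ replicates 1 to 5 and a lowest, median and highest of 1.81, 1.99 and 2.42 FPKM in *Atf6*-/- libraries. The *Atf6*-/- values of *Ryr2* all lay inside the *Atf6*+/+ range, with a log2 fold change at -0.09 (SE 0.130, adjusted p = 0.832 by limma). It was -0.0059 without *Atf6*+/+ replicate 3, its highest library, and -0.18 without *Atf6*+/+ replicate 5, its lowest. *Ryr3* (NCBI gene 20192), found at low levels in brain and smooth muscle, had 0.95, 1.02, 1.15, 0.89 and 0.77 FPKM, against 0.66, 0.80 and 1.07 FPKM as the lowest, median and highest in *Atf6*-/- libraries. The groups overlapped, with 5 of 6 *Atf6*-/- values inside the *Atf6*+/+ range. Its log2 fold change at -0.18 (SE 0.142, adjusted p = 0.662 by limma; exact permutation p = 0.171) was the lowest of the 9, and its 95% confidence interval ran from -0.49 to 0.13. With 1 library left out it ranged from -0.25 without *Atf6*-/- replicate 2 to -0.12 without *Atf6*+/+ replicate 3.

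*Ryr1* (NCBI gene 20190), the release channel of skeletal muscle, was near 0 apart from a single library. Its values were 0.02, 0, 0.03, 0.04 and 0.01 FPKM in *Atf6*+/+ replicates 1 to 5 and 0.01, 0.02, 0.16, 0.01, 0.01 and 0.02 FPKM in *Atf6*-/- replicates 1 to 6. At 2 decimals, most of these values are a few steps of the file's rounding. The high value was in *Atf6*-/- replicate 3, and the other *Atf6*-/- libraries averaged 0.014 FPKM (n = 5). Skeletal muscle markers were high in the same library: *Acta1* had 9.59 FPKM there and at most 2.03 FPKM elsewhere, and *Ckm* 8.41 FPKM and at most 0.69 FPKM. *Myh2*, *Myh4* and *Tnnc2* of the muscle list were at 0 in some other library. *Atp2a1*, the SERCA pump of fast muscle, had 5.35 FPKM in *Atf6*-/- replicate 3 and from 0.20 to 0.84 FPKM in the other 10 libraries. The part of muscle tissue in the *Ryr1* and *Atp2a1* values was not tested.

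Within the family, *Ryr2* held 69.4% ± 1.15 (SD, n = 5) of summed ryanodine receptor FPKM in *Atf6*+/+ and 70.5% ± 3.28 (SD, n = 6) in *Atf6*-/- libraries. *Ryr3* held 30.0% ± 1.29 (SD, n = 5) and 28.2% ± 1.79 (SD, n = 6). *Ryr1* reached 5.48% of the family in *Atf6*-/- replicate 3 and averaged 0.472% in the *Atf6*-/- libraries without it. Summed FPKM of the family was 3.20 ± 0.558 (SD, n = 5) in *Atf6*+/+ and 2.94 ± 0.351 (SD, n = 6) in *Atf6*-/- libraries.

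*Atp2a2* (NCBI gene 11938), the SERCA pump found in nearly all cells, was the most abundant of the 10 genes. It had 114, 116, 124, 104 and 102 FPKM in *Atf6*+/+ replicates 1 to 5, and a lowest, median and highest of 102, 112 and 124 FPKM in *Atf6*-/- libraries. The ranges of the groups were almost the same. The log2 fold change was -0.0016 (SE 0.0645, adjusted p = 0.997 by limma), with a 95% confidence interval from -0.14 to 0.14. Its sign changed with the scaling, since it was 0.06 after rescaling to TPM, where the median of all genes tested went from -0.01 to 0.04. With 1 library left out, the fold change of *Atp2a2* ranged from -0.04 to 0.04.

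*Atp2a3* (NCBI gene 53313), a pump of blood, endothelial and some epithelial cells and of Purkinje neurons, was lower, at 11.3, 11.7, 12.4, 8.97 and 9.64 FPKM in *Atf6*+/+ replicates 1 to 5. In *Atf6*-/- libraries its lowest, median and highest values were 8.85, 11.7 and 13.2 FPKM. All *Atf6*+/+ values lay inside the *Atf6*-/- range, and the log2 fold change was 0.05 (SE 0.124, adjusted p = 0.905 by limma). With 1 library left out it ranged from -0.01 without *Atf6*+/+ replicate 4 to 0.12 without *Atf6*-/- replicate 2. *Atp2a2* made up 91.2% ± 0.505 (SD, n = 5) and 90.8% ± 1.60 (SD, n = 6) of the summed FPKM of these pumps, and *Atp2a3* the rest. The platelet and megakaryocyte list of 8 genes, cells rich in this pump, summed to 19.6, 30.0, 84.1, 31.8 and 43.4 FPKM in *Atf6*+/+ replicates 1 to 5. In *Atf6*-/- replicates it summed to 15.1, 38.9, 42.4, 33.8, 15.1 and 38.7 FPKM, with *Pf4* as its most abundant gene and *Gp9* at 0 in replicate 1. *Atf6*+/+ replicate 3, highest in that list, had 12.4 FPKM of *Atp2a3*, *Atf6*-/- replicate 1, among the lowest in the list, had 12.2 FPKM, and the part of platelets was not tested.

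Of the ER sensors, *Stim1* (NCBI gene 20866), which opens ORAI channels when the store is emptied, varied least between *Atf6*+/+ libraries. It had 19.2, 19.8, 19.2, 19.0 and 18.9 FPKM in replicates 1 to 5, a coefficient of variation of 1.84%, and a lowest, median and highest of 18.9, 19.9 and 22.5 FPKM in *Atf6*-/- libraries. *Atf6*-/- replicates 5 and 6 were above all others at 22.5 FPKM each, and the lowest of the 11 values was also an *Atf6*-/- one, so that the groups overlapped. The log2 fold change was 0.09 (SE 0.0538, adjusted p = 0.570 by limma; exact permutation p = 0.108). Without *Atf6*-/- replicate 5 it was 0.06.

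*Stim2* (NCBI gene 116873), which responds to small losses of calcium and sets its resting level, had 27.7, 28.7, 22.1, 22.8 and 26.2 FPKM in *Atf6*+/+ replicates 1 to 5. The lowest, median and highest *Atf6*-/- values were 20.2, 26.5 and 27.8 FPKM. The groups overlapped over most of their range, and the log2 fold change was 0.0009 (SE 0.0940, adjusted p = 0.999 by limma). Adding the bone marrow score moved it to -0.14, and with 1 library left out it ranged from -0.05 to 0.07. As for *Itpr1*, the 3 libraries lowest in *Stim2* were the 3 lowest in the hair cell and supporting cell lists. *Stim2* made up 56.9% ± 2.68 (SD, n = 5) of summed STIM FPKM in *Atf6*+/+ and 55.4% ± 2.50 (SD, n = 6) in *Atf6*-/- libraries.

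**Figure D3:**
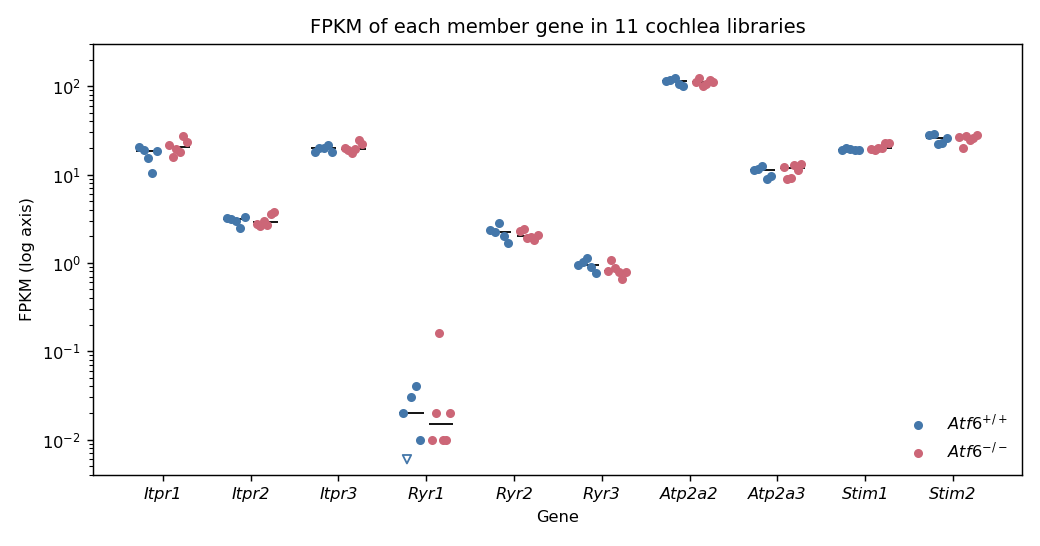
FPKM of the 10 genes on a log axis, a point for each library and a line at each group's median, with *Atf6*+/+ in blue and *Atf6*-/- in red. An open triangle marks a *Ryr1* value of 0, which a log axis cannot show, and the *Ryr1* point at 0.16 FPKM is *Atf6*-/- replicate 3.

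Ordered by mean FPKM over all 11 libraries, the levels ran *Atp2a2* (112), *Stim2* (25.5), *Itpr3*, *Stim1* (19.9), *Itpr1* (19.1), *Atp2a3*, *Itpr2* (3.04), *Ryr2* (2.14), *Ryr3* (0.888) and *Ryr1* (0.030). The ubiquitous pump thus stood 4.38 times above the next gene, and their ranges did not overlap. The neighbours *Itpr3*, *Stim1* and *Itpr1* were not set apart: *Itpr3* was above *Stim1* in 6 of 11 libraries, and *Stim1* above *Itpr1* in 7 of 11. Every other pair of neighbours kept its order in 11 of 11 libraries. Among those pairs, the ranges overlapped for *Stim2* and *Itpr3*, for *Itpr1* and *Atp2a3*, and for *Itpr2* and *Ryr2*.

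Some of the genes had the same high libraries, and how often other genes did was not counted. *Atf6*-/- replicates 5 and 6 were the 2 highest libraries for 4 of the 10 genes, namely the 3 IP3 receptors and *Stim1*. *Atf6*+/+ replicate 3 and *Atf6*-/- replicate 2 were the 2 highest for 3 genes, *Ryr2*, *Ryr3* and *Atp2a2*. Those 2 libraries were also high in the neuron list of 10 genes, led by *Snap25*, which summed to 3915, 3869, 4453, 4512 and 3609 FPKM in *Atf6*+/+ replicates 1 to 5. In *Atf6*-/- replicates the neuron list summed to 3872, 4332, 3691, 3892, 3474 and 3558 FPKM, with none of its genes at 0. *Atf6*+/+ replicate 4 had the highest neuron sum but was not among the high libraries of these 3 genes. The part of neurons in their values was not tested.

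Genes whose log2 values ran most like those of *Itpr1* over the 11 libraries were *Sorl1* (r = 0.976), *Clmn* (r = 0.971) and *Epyc* (r = 0.968), among the 13610 genes compared, each averaging 1 FPKM or more. All of these were lowest in *Atf6*+/+ replicate 4 and highest in *Atf6*-/- replicate 5, as *Itpr1* was. *Epyc*, which encodes a matrix proteoglycan, had a log2 fold change of 0.86, while *Sorl1* had 0.32 and *Clmn* 0.18. The genes most like *Atp2a2* were *Ss18l1*, *Trim37* (r = 0.967) and *Lgi2* (r = 0.947). Those most like *Atp2a3* were *Zzz3* (r = 0.949), *Abca1* (r = 0.932) and *Zmynd8* (r = 0.931), and those most like *Stim1* were *Samd4* (r = 0.944), *Lamc1* (r = 0.944) and *Irf2* (r = 0.938). For *Ryr1* they were *Atp6ap1* (r = 0.871) and the muscle genes *Mylpf* (r = 0.851) and *Mb* (r = 0.850), each highest in *Atf6*-/- replicate 3. These Pearson correlations describe 11 libraries that also share sampling of tissue and depth, and were picked as the highest of many.

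Other genes of the calcium pathway were counted from 8 lists with 78 genes, of which 77 matched and 75 were tested. By limma, 0 of the 75 had an adjusted p under 0.05, and 10 (13.3%) met the unadjusted rule, against 9.85% of all genes. Of the 75 genes tested, 4 met the rule as higher in *Atf6*-/- cochleae and 6 as lower. Of all genes tested, 4.48% met it as higher and 5.37% as lower. The median log2 fold change of the 75 was -0.01, as for all genes tested. The count of 10 became 3 once the bone marrow score was added and 6 once the skeletal muscle score was. It was 5 without *Atf6*+/+ replicate 3 or without *Atf6*-/- replicate 1, and 4 without *Atf6*-/- replicate 5 or 6. It rose to 13 after rescaling to TPM, and to 14 without *Atf6*+/+ replicate 5 or without *Atf6*-/- replicate 2.

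Upstream of the IP3 receptors, 4 of 12 phospholipase C genes, whose enzymes make IP3, met the unadjusted rule. *Plcg1*, activated by tyrosine kinases, had 20.1 ± 1.09 FPKM (mean ± SD) in the 5 *Atf6*+/+ libraries and 22.4 ± 1.25 FPKM in the 6 others, for a log2 fold change at 0.15 (adjusted p = 0.415 by limma). *Plcd3* was higher by 0.30 (adjusted p = 0.475 by limma). *Plcg2*, the form of blood cells, was lower, with a log2 fold change at -0.42 (adjusted p = 0.470 by limma) and peaked at 6.94 FPKM in *Atf6*+/+ replicate 3, the library with the highest summed neutrophil markers. *Plcb4*, the most abundant of the list with a mean of 35.7 FPKM, had a log2 fold change at -0.18 (adjusted p = 0.505 by limma). Among 12 partners of the IP3 receptors, 10 were tested and 1 met the rule: *Itpka*, a kinase that removes IP3, had 1.38 ± 0.176 FPKM (SD, 5 *Atf6*+/+ libraries) against 1.06 ± 0.248 FPKM (SD, 6 *Atf6*-/- libraries), with a log2 fold change at -0.38 (adjusted p = 0.488 by limma). *Ahcyl2*, the most abundant partner, had a mean of 110 FPKM and a log2 fold change at 0.20 (adjusted p = 0.604 by limma).

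Around the ryanodine receptors, SERCA and STIM, few genes met the rule. Of 12 genes of the ryanodine receptor complex, 1 did: *Jph1*, which ties the ER to the plasma membrane, had 0.856 ± 0.153 FPKM (SD, 5 *Atf6*+/+ libraries) against 1.10 ± 0.163 FPKM (SD, 6 *Atf6*-/- libraries), with a log2 fold change at 0.33 (adjusted p = 0.494 by limma). *Fkbp1a*, which binds the receptors, was the most abundant gene of the complex at 122 FPKM, with a log2 fold change of 0.02. Of the SERCA list, 3 of 4 genes matched and 0 were called by limma at an unadjusted p under 0.05, with the pump inhibitor *Pln* at 1.52 FPKM as the most abundant. In store-operated entry the count was 0 of 8, and *Saraf*, which shuts the entry off, had 134 FPKM and a log2 fold change of 0.02. In the ER lumen and leak list it was 0 of 10, where *Calr*, the calcium-binding chaperone calreticulin, had 301 ± 40.0 FPKM (SD, 5 *Atf6*+/+ libraries) against 330 ± 24.2 FPKM (SD, 6 *Atf6*-/- libraries), with a log2 fold change at 0.14 (adjusted p = 0.586 by limma). In plasma membrane and Golgi export it was 0 of 9, where the hair cell pump gene *Atp2b2* led with 41.2 FPKM.

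Mitochondria take up calcium beside ER release sites, and 4 of 11 genes of that list met the unadjusted rule. *Smdt1* (NCBI gene 69029), the subunit that couples the uniporter to its gatekeepers, had 156, 149, 163, 188 and 183 FPKM in *Atf6*+/+ replicates 1 to 5. In *Atf6*-/- replicates 1 to 6 it had 118, 84.7, 87.6, 90.4, 146 and 148 FPKM. Each *Atf6*-/- value was below each *Atf6*+/+ value, although replicates 5 and 6 lay close to the lowest *Atf6*+/+ library, and *Smdt1* was the 1 gene of the 75 with groups that did not overlap, a share near the 1.25% of all genes. The log2 fold change was -0.61 (SE 0.155, adjusted p = 0.314 by limma; exact permutation p = 0.0108). *Mcub*, a subunit that dampens the uniporter, had 9.85 ± 1.62 FPKM (SD, 5 *Atf6*+/+ libraries) against 7.51 ± 0.586 FPKM (SD, 6 *Atf6*-/- libraries), with a log2 fold change at -0.38 (adjusted p = 0.345 by limma). *Mcu*, the pore, was at -0.13 (adjusted p = 0.505 by limma), and *Slc8b1*, which exports mitochondrial calcium, at 0.14 (adjusted p = 0.496 by limma). *Vdac1*, an outer membrane channel, was the most abundant gene of the list at 228 FPKM, with a log2 fold change of -0.10.

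Other marker lists give the setting of these values. By the unadjusted rule, 4 of 8 neutrophil, 3 of 8 B cell and 5 of 8 erythroid genes were lower in *Atf6*-/- cochleae, and none of these lists had a gene that was higher. The erythroid list, led by *Hba-a1*, summed to between 3455 and 32187 FPKM in *Atf6*+/+ and between 2061 and 6569 FPKM in *Atf6*-/- libraries, and the B cell list, led by *Ebf1*, to between 31.5 and 54.8 FPKM and between 30.3 and 39.1 FPKM. *Ppp1r17* was the 1 of 5 Purkinje cell genes that was higher. That list, led by *Calb1* and with *Pcp2* at 0 in some libraries, summed to between 32.9 and 45.2 FPKM and between 24.4 and 44.6 FPKM. The other counts were 2 of 10 hair cell, 1 of 8 supporting cell and 1 of 9 stria vascularis genes higher, and 2 of 10 neuron genes lower. In the skeletal muscle, smooth muscle, platelet, macrophage and bone lists, limma called 0 genes at the unadjusted rule. The stria list, led by *Atp1b2*, summed to between 226 and 493 FPKM in *Atf6*+/+ and between 352 and 587 FPKM in *Atf6*-/- libraries. Smooth muscle genes summed to between 87.8 and 168 FPKM and between 91.7 and 119 FPKM, macrophage genes to between 142 and 214 FPKM and between 102 and 181 FPKM, and bone genes to between 260 and 1988 FPKM and between 228 and 759 FPKM.

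Promoter windows were read from RefSeq (GRCm38.p6), 250 bases before to 50 after each gene start, to see which genes carry letters known to bind ATF6. Windows were found for 7 of the 10 genes, and not for *Itpr1*, *Ryr3* and *Atp2a2*. The ER stress response element, CCAAT and CCACG with 9 bases of any kind between them, was searched on both strands and lies in 0.119% of 32851 windows. Its second form, ATTGG and CCACG with 1 base between them, lies in 0.0365%, and TGACGTGG in 0.676%. None of these was in the windows of the 7 genes. CCACG alone, which is part of each of them on one strand or the other, lies in 32.8% of windows, and 3 of the 7 genes, *Itpr2*, *Itpr3* and *Stim2*, held it. *Calr*, the most abundant gene of the lumen list, held the full element once. A match describes letters only and says nothing of binding, and a window without one says nothing of the factor.

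The *Calr* window and that of *Stim2*, the member with most copies of CCACG, are shown to set a full element beside loose copies of its end. Both are 5′ to 3′ on the strand of the gene. Capitals mark the full element, on the opposite strand, in *Calr* (chr8:84846882-84847181, minus strand) and the 5 copies of CCACG or its complement CGTGG in *Stim2* (chr5:53998273-53998572, plus strand).
Calr: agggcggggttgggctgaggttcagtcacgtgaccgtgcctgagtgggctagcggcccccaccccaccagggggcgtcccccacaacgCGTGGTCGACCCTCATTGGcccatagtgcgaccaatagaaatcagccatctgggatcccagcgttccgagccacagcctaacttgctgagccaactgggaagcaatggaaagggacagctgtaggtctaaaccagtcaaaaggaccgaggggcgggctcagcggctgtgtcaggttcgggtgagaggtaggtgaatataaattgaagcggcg
Stim2: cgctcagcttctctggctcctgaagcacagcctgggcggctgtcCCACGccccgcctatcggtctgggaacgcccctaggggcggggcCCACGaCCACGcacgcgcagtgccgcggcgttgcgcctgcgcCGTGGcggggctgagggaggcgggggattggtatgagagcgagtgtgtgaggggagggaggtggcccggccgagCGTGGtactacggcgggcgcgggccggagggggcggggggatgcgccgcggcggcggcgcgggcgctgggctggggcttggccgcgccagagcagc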

How the data were processed

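The values are FPKM that the authors deposited with 2 decimals for each gene of each library. Per the labels and the paper's methods, RNA from whole cochleae was made into stranded mRNA libraries, reads were aligned to GRCm39 with HISAT2 2.0.4, and FPKM came from RSEM (1.2.12 in the submitters' processing notes, while the paper's methods name another version). No counts of reads were available, so limma took the place of the authors' DESeq2 1.4.5 test.

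The tables of the genotypes were merged on NCBI gene identifiers. Values were taken as log2(FPKM + 0.1), so that fold changes of low genes are understated. Genes averaging 0.1 FPKM or more went into limma 3.58.1 under R 4.3.3, with trended variance, genotype as the only term, two-sided p and Benjamini-Hochberg adjustment over 16169 genes. Each gene tested also had an exact permutation test, two-sided (462 assignments, smallest p 0.00216). No test was run over a list. The fit was tested on simulated data. Tables and figures used Python 3.11.15, numpy 2.4.6, pandas 2.3.3 and matplotlib 3.10.9.

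The members and lists were chosen with earlier results of these data known. Named genes are the 10 members, pathway genes at the unadjusted rule, the most abundant gene of each pathway list, *Atf6*, and the 3 genes most correlated with *Itpr1*, *Ryr1*, *Atp2a2*, *Atp2a3* and *Stim1*. *Atp2a1* and single marker genes were named besides, after the values were seen. *Irag1* was matched as *Mrvi1* through RefSeq synonyms, and *Strit1* was not matched. Alternatives were other pseudocounts, filters and scalings, a replicate block, robust variance, marrow and muscle scores, and leaving out each library.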

Additional observations from a re-analysis of the deposited data

Results flagged for a closer look

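In 58 groups of values of 29 named genes (the 10 members, *Atf6* and the named pathway genes, but no marker genes), 3 values lay far from the others of their group, where chance flags about 1 in 20 groups. *Ryr1* measured 0.16 FPKM in *Atf6*-/- replicate 3 and at most 0.02 FPKM in the other *Atf6*-/- libraries, so that the gap to the next library took 0.933 of the group's range. *Atp2a1*, checked after its values were seen, measured 5.35 FPKM in the same library and at most 0.66 FPKM in the other *Atf6*-/- libraries, a gap of 0.911 of the range. It also measured 0.84 FPKM in *Atf6*+/+ replicate 4 and at most 0.61 FPKM in the other *Atf6*+/+ libraries, a gap of 0.719. The skeletal muscle list summed to 52.1 FPKM in *Atf6*-/- replicate 3 and to 3.26 FPKM in *Atf6*+/+ replicate 4, and its part in these values was not tested.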

How the results depend on the processing

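The members' calls held under all 10 other settings, with 0 at an adjusted p under 0.05 and 0 at the unadjusted rule. Without 1 library, from 0 to 1 member met the unadjusted rule (*Itpr1*, without *Atf6*+/+ replicate 1 or *Atf6*-/- replicate 2). The members' median log2 fold change ranged from -0.0028 to 0.067 over the settings and from -0.0259 to 0.067 without 1 library. The highest value over the settings was after rescaling to TPM, where the median of all genes tested was 0.0426. Between libraries, the median member value had an SD of 0.0982, a spread of single libraries and not of a difference between groups.

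With the bone marrow score, itself partly confounded with genotype, 6 genes had an adjusted p under 0.05 by limma (11 in the main fit). The unadjusted rule was met by 852 genes (1592) and by 3 other calcium genes (10), a count of 6 with the muscle score. Without 1 library, from 4 to 14 other calcium genes were called. Small fold changes changed sign. *Itpr2* was -0.008 with the marrow score and from -0.0584 to 0.0511 without 1 library. *Atp2a2* was 0.0553 in TPM, 0.0104 with median-of-ratios scaling, 0.0278 with the marrow score, 0.0025 with the muscle score, and from -0.036 to 0.036 without 1 library. *Atp2a3* was from -0.0104 to 0.1178 without 1 library. *Stim2* was -0.1419 with the marrow score, -0.0029 with the muscle score, and from -0.0486 to 0.067 without 1 library. The median of all genes tested moved as well, from -0.0134 in the main fit to 0.0426 in TPM and -0.0016 with median-of-ratios scaling. The cause of the other sign changes was not tested.

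Deviations of same-numbered libraries from their group means had correlations of 0.095, -0.122, -0.21, 0.119 and -0.0395. Differently numbered libraries were not compared in this way, so these values cannot decide whether the numbers pair them. The replicate block, over 5 shared numbers and without *Atf6*-/- replicate 6, gave 4 genes at an adjusted p under 0.05, 5 other calcium genes at the unadjusted rule, and log2 fold changes of -0.0469 for *Itpr2* and -0.025 for *Stim2*. *Ryr1* could be tested only without the filter on low values (log2 fold change 0.13, limma adjusted p = 0.861), and *Ryr3* had no value at a mean of at least 1 FPKM. With 5 and 6 libraries, changes smaller than the intervals given could be missed.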
